A study of Mus musculus with 9 samples.

Results

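The comparison is between 4T1 cells given a material that carries gold and copper and 4T1 cells given the copper material without gold. It uses 6 of the 9 sequenced libraries of the study, the 3 labelled Au_TCPP and the 3 labelled Cu_TCPP, fitted alone, and 13297 of the 54532 genes listed had enough counts in these 6 libraries to be tested. 4T1 is a mouse mammary carcinoma line, grown here in high glucose medium with serum. Cu_TCPP cells received Cu-TCPP(Fe)-PEG, labelled as consuming glutathione (GSH), and Au_TCPP cells received Au/Cu-TCPP(Fe)-PEG, labelled as consuming GSH and also as acting on glucose like an oxidase. Control cells received medium alone; their 3 libraries entered no test and give reference levels. All groups were treated for 24 h, doses are not given in the sources used here, and both material groups share copper, iron, the porphyrin TCPP and PEG, so that the labelled difference between them is gold. The labels do not describe the replicates as separate cultures, so p-values measure the spread between these libraries, which may be technical.

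Glucose oxidase activity turns glucose and oxygen into gluconic acid and hydrogen peroxide, so a material with it can take away a fuel and add an oxidant. Cells answer oxidants through the transcription factor NRF2, which drives genes for GSH synthesis and detoxification, and answer damaged proteins through HSF1, which drives chaperone genes. Shortage of amino acids, glucose or oxygen is read by further programmes, among them the integrated stress response with ATF4 and CHOP, the glucose-sensing pair MondoA and ChREBP with their target Txnip, and the hypoxia factor HIF.

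Levels are given as CPM, counts scaled to the effective library total, for replicates 1, 2 and 3 in that order. Differences are Au_TCPP minus Cu_TCPP on the log2 scale with their standard errors, and a gene is called when its adjusted p from edgeR's quasi-likelihood test is under 0.05. Of all genes tested, 8396 were called (63.1%), 4153 of them higher with gold (31.2%) and 4243 lower (31.9%). With a log2 difference of at least 1 in size, 1803 were higher (13.6%) and 1719 lower (12.9%). In 9142 genes (68.8%) the libraries of the groups did not overlap, so that this is the usual case for a gene here. The median difference over all genes was -0.01 and the median standard error 0.14. The authors' deposited table had 8230 genes with an adjusted p under 0.05 for this pair, and 7799 genes were called in both with the same sign. Scaling by library totals alone moved the median of all genes to -0.33 and gave 2584 genes higher and 6074 lower, so list counts are read against these shares and not against 0. List medians moved down with it. The plot of all genes sets the differences against mean level.

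**Figure D1:**
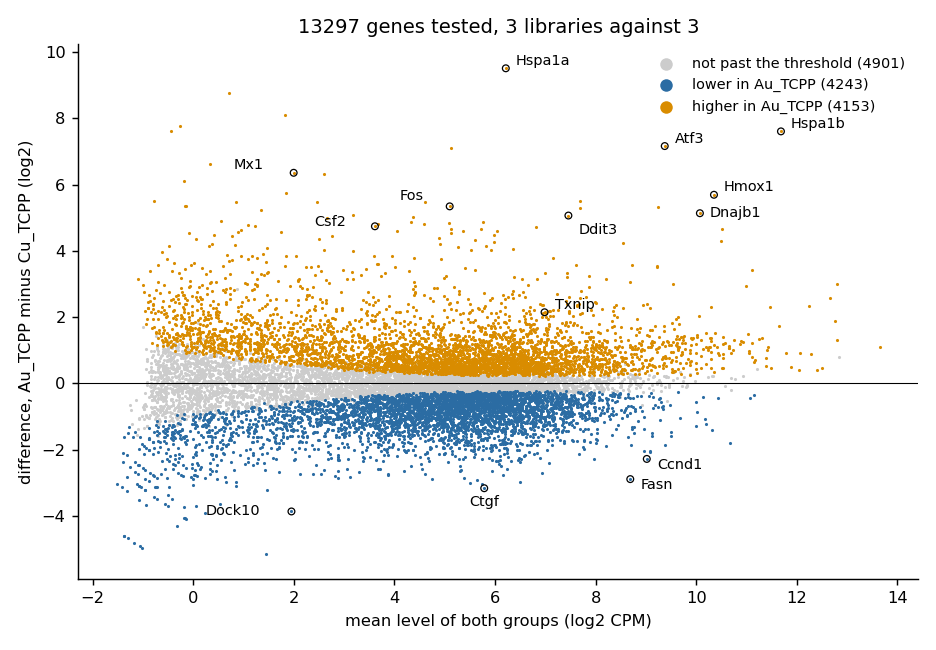
Difference between Au_TCPP and Cu_TCPP (vertical axis, log2) against the mean level of both groups (horizontal axis, log2 CPM) for the 13297 genes tested; each point is a gene, coloured by its call, and 14 genes are circled and named. The called genes split into 4153 higher and 4243 lower, and the points farthest from 0 at high level are Hspa1b, Atf3, Hmox1 and Dnajb1 upward and Fasn and Ccnd1 downward.

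Total counts of the 9 libraries lay between 15477324 and 17494776. The first principal component of the 6 libraries held 82.2% of the variance and separated the groups. The second held 8.08%, and there Au_TCPP replicate 2 stood at -36.5 against 14.6 and 20.2 for the other Au_TCPP libraries. The epithelial markers Epcam and Cdh1 were at 93, 91 and 84.1 CPM and 354, 337 and 371 CPM in Au_TCPP, while Ptprc, Adgre1 and Cd3e, defining markers of macrophages and lymphocytes, were at 0 in all Au_TCPP libraries. Of the receptors used to class mammary tumours, Esr1 was at 6.18, 4.86 and 4.30 CPM in Cu_TCPP and 6.80, 5.28 and 6.25 CPM in Au_TCPP. Pgr was at 0 in all Cu_TCPP libraries and at 0.416, 0.0686 and 0 CPM in Au_TCPP, and Erbb2 was at 58.5, 68.8 and 67.2 CPM in Cu_TCPP and 21.5, 22.1 and 20.4 CPM in Au_TCPP.

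The 2 groups also differed in the make-up of their libraries. Ribosomal protein genes took 10.3%, 10.6% and 9.72% of the Au_TCPP counts and 5.68%, 5.83% and 5.94% of the Cu_TCPP counts. The mean length of the genes counted was 4549, 4602 and 4669 nt in Au_TCPP and 5720, 5601 and 5629 nt in Cu_TCPP, without overlap. Differences fell with gene length, from a median of 0.85 over the 438 genes of up to 500 nt to -0.43 over the 2035 genes of more than 8000 nt. An offset for the length trend of each library brought these medians to 0.26 and -0.01 and left 8114 genes called. The part of gene length or RNA quality in the differences was not tested beyond this offset, and list counts that it moves by over 1.5 times are given beside the lists that do not mark cell types.

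**Figure D2:**
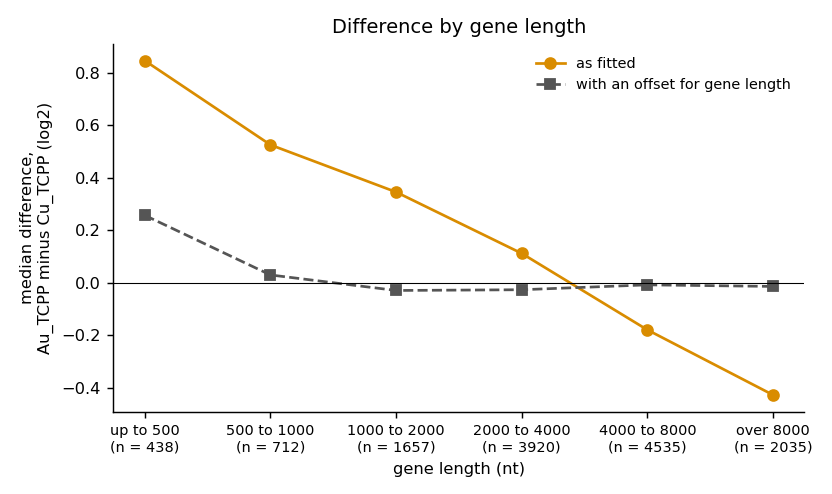
Median difference between Au_TCPP and Cu_TCPP (vertical axis, log2) in 6 bins of gene length (horizontal axis, nt, with the number of genes), as fitted and with an offset for gene length. As fitted, the median falls from 0.85 in the shortest bin to -0.43 in the longest, and with the offset it lies at 0.26 in the shortest bin and between -0.03 and 0.03 in the others.

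Chaperone genes were higher with gold. The largest difference of all named genes was that of Hspa1a (9.51), a value that rests on few counts in Cu_TCPP. Of 31 heat shock genes tested, 30 were higher with gold and 1 was lower, with a median difference of 1.5. The near-identical genes Hspa1a and Hspa1b encode the inducible HSP70, and how their shared reads were split is uncertain, so their sum is given. It was 17.9, 20.3 and 19 CPM in Control, 29.3, 33.8 and 38.4 CPM in Cu_TCPP and 6368, 6186 and 7548 CPM in Au_TCPP, a ratio of 198 between the material groups. All Au_TCPP libraries were far above all others. Most of the sum was Hspa1b (chr17:34956436-34959238 in mm10), at 29.3, 33.7 and 37.9 CPM in Cu_TCPP and 6243, 6029 and 7385 CPM in Au_TCPP, a difference of 7.61 ± 0.16 (SE, adjusted p = 4.5e-11). Hspa1a had 11 counts in Cu_TCPP as a whole.

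The co-chaperones of HSP70 followed. Dnajb1 (chr8:83608193-83612653), an HSP40 that hands clients to HSP70, was at 37.2, 38.2 and 39.4 CPM in Control, 60.4, 60.4 and 57.9 CPM in Cu_TCPP and 2178, 1628 and 2479 CPM in Au_TCPP, a difference of 5.14 ± 0.17 (SE, adjusted p = 7.9e-10). Dnajb4, another HSP40, went from 40.7, 33.8 and 37 CPM to 770.0, 614 and 736 CPM, a difference of 4.25 ± 0.14. The nucleotide exchange factor Hsph1 went from 116, 107 and 110.2 CPM to 2685, 2348 and 3369.9 CPM, a difference of 4.66 ± 0.15. None of these genes overlapped between the groups. The small heat shock protein Cryab (4.59) and the HSP70 co-chaperone Bag3 (3.14) were also called. Hspa8, the constitutive HSP70, was at 1599, 1462 and 1659 CPM in Cu_TCPP and 13180.4, 9392 and 15577 CPM in Au_TCPP. Hsp90aa1, the inducible HSP90, was at 1965, 1717 and 1911 CPM and 11117, 8087 and 14118 CPM. The 1 member called lower was Hsf1, the transcription factor of the response, at 54.8, 63.3 and 62.8 CPM in Cu_TCPP and 33.9, 31.7 and 38 CPM in Au_TCPP (-0.81). Zfand2a, a stress-induced proteasome-associated protein outside the list, went from 30.1, 31.2 and 26.9 CPM to 1224, 767 and 1566 CPM, a difference of 5.33 ± 0.25 (SE, adjusted p = 6.3e-08). In Control, 27 of the 30 genes that were higher stood below both material groups.

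HSF1 binds promoters at heat shock elements, and the 4 heat shock genes with the largest differences among those with such an element upstream of the start are shown to let the element be seen. Sequences are the 150 bases before the start site from RefSeq (GRCm38.p6), read along the gene's own strand, with the letters GAANNTTC in capitals; these letters read the same on both strands.
Hspa1a (chr17:34972157-34972306, minus strand): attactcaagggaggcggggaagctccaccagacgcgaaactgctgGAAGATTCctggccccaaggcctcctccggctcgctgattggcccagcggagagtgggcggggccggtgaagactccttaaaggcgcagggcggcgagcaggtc
Hspa1b (chr17:34959239-34959388, minus strand): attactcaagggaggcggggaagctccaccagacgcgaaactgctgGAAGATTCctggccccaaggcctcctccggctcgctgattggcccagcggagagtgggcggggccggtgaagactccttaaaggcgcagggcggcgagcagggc
Dnaja1 (chr4:40722318-40722467, plus strand): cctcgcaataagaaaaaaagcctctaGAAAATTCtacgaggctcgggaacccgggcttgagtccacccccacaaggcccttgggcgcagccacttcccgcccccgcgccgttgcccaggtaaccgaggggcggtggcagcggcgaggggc
Hspe1 (chr1:55087998-55088147, plus strand): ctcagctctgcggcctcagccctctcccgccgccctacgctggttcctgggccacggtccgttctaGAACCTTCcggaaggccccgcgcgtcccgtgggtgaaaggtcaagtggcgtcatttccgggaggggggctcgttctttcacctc
The match begins 104 bases before the start in Hspa1a and in Hspa1b, whose stretches share 149 of 150 bases, 124 bases before it in Dnaja1 and 84 bases before it in Hspe1. Dnaja1, an HSP40, went from 143, 146 and 129 CPM to 2761, 2076 and 3359.7 CPM (4.29), and Hspe1, the mitochondrial HSP10, from 173, 200.1 and 181 CPM to 853, 819 and 1006 CPM (2.27). In the 250 bases before the start, the letters were found in 7 of the 24 tested heat shock genes with a window in the table (29.2%) and in 562 of all 9362 tested genes with one (6.0%). The 7 are not all separate sites, since they include the near-identical Hspa1a and Hspa1b, and Hspd1 and Hspe1, whose windows overlap. Dnajb1 (5.14), Hsph1 (4.66), Dnajb4 (4.25) and Bag3 (3.14) had no match in these 250 bases. In a longer window that also holds bases after the start, Hsph1 had a match and Dnajb1 and Dnajb4 had none. No other letters were searched for the element. A match is a description of the letters and not a measured site of binding.

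Genes of protein breakdown moved the same way. Of 36 proteasome and ubiquitin genes, 31 were higher with gold and 0 lower, with a median of 0.75; with library totals alone 27 were higher and 1 lower. Ubb, which encodes polyubiquitin, went from 344, 381 and 409 CPM to 3877, 3378 and 4896 CPM, a difference of 3.42 ± 0.15 (SE, adjusted p = 6.1e-09). The autophagy receptor Sqstm1 (p62) went from 441, 508 and 463 CPM to 3571, 2711 and 4556 CPM, a difference of 2.94 ± 0.17, and was at 826, 862 and 904 CPM in Control. Subunits of the particle itself differed less, as with Psmd8 of the regulatory cap at 1.08 ± 0.10. Of 41 lysosome and autophagy genes, 30 were higher and 2 lower (median 0.66). With library totals alone the lysosome counts were 20 and 6, and 1 was lower with the length offset and without Au_TCPP replicate 1 or Cu_TCPP replicate 3. Map1lc3b, which coats autophagosomes, differed by 1.84 ± 0.10, the lysosomal galactosidase Gla by 1.92 ± 0.12 and the protease Ctsd by 1.47 ± 0.10. Tfeb, a transcription factor of lysosomal genes, was at 5.58, 7.26 and 5.94 CPM in Cu_TCPP and 4.51, 6.86 and 6.47 CPM in Au_TCPP and was not called.

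Of 39 NRF2 regulators and targets, 30 were higher with gold and 1 was lower, with a median of 1.09; of 42 genes of GSH and thioredoxin, which share members with them, 30 were higher and 2 lower (median 1.06). With library totals alone, 26 NRF2 genes were higher and 4 lower, and 28 and 7 of the GSH genes. Of the NRF2 genes, 3 were lower with the length offset and 2 without Au_TCPP replicate 2. Of the GSH genes, 1 was lower with RLE factors and without Au_TCPP replicate 1 or any one Cu_TCPP library. Hmox1 (chr8:75093621-75100589), which breaks down heme, was at 14.5, 15.9 and 12.9 CPM in Control, 53, 47.1 and 48.7 CPM in Cu_TCPP and 2811, 1879 and 3009 CPM in Au_TCPP, a difference of 5.69 ± 0.19 (SE, adjusted p = 1.1e-09). The 3 groups did not overlap and Control was lowest. Gclm, a subunit of the enzyme that limits GSH synthesis, was at 157, 151 and 145 CPM in Control, 329.8, 312 and 335 CPM in Cu_TCPP and 1227, 725 and 1482 CPM in Au_TCPP, a difference of 1.81 ± 0.22. Its partner Gclc differed by 1.41 ± 0.10. Nqo1, a quinone reductase, went from 20.9, 16.5 and 20.3 CPM to 132, 77.7 and 161 CPM, a difference of 2.68 ± 0.25. The aldehyde dehydrogenase Aldh3a1 went from 3.50, 4.40 and 4.09 CPM to 114, 69.8 and 120.2 CPM (4.66 ± 0.22), and Control was at 28, 30.4 and 36 CPM. In both genes replicate 2 was the lowest Au_TCPP library.

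GSH transferases were among the members called, as with Mgst1 at 2.51 ± 0.13 and Gsta4 at 2.11 ± 0.11. Gpx4, the peroxidase that clears lipid peroxides with GSH, was at 485, 508 and 524 CPM in Control, 267, 290.1 and 296 CPM in Cu_TCPP and 657, 817 and 598 CPM in Au_TCPP, a difference of 1.28 ± 0.13. Its copper-only level was thus the lowest of the 3 groups. Slc7a11, the cystine importer that feeds GSH synthesis, was at 42.9, 36.7 and 42.6 CPM in Cu_TCPP and 127, 44 and 194 CPM in Au_TCPP. All 3 Au_TCPP libraries were above all Cu_TCPP libraries, but replicate 2 was close to them and the gene was not called (1.58 ± 0.55, adjusted p = 0.055). Without that library the Slc7a11 difference was 2.0 with an adjusted p of 1.5e-06. Keap1, which marks NRF2 for breakdown, was the 1 member called lower (-0.59), and Nfe2l2, which encodes NRF2, was called higher (0.75).

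**Figure D3:**
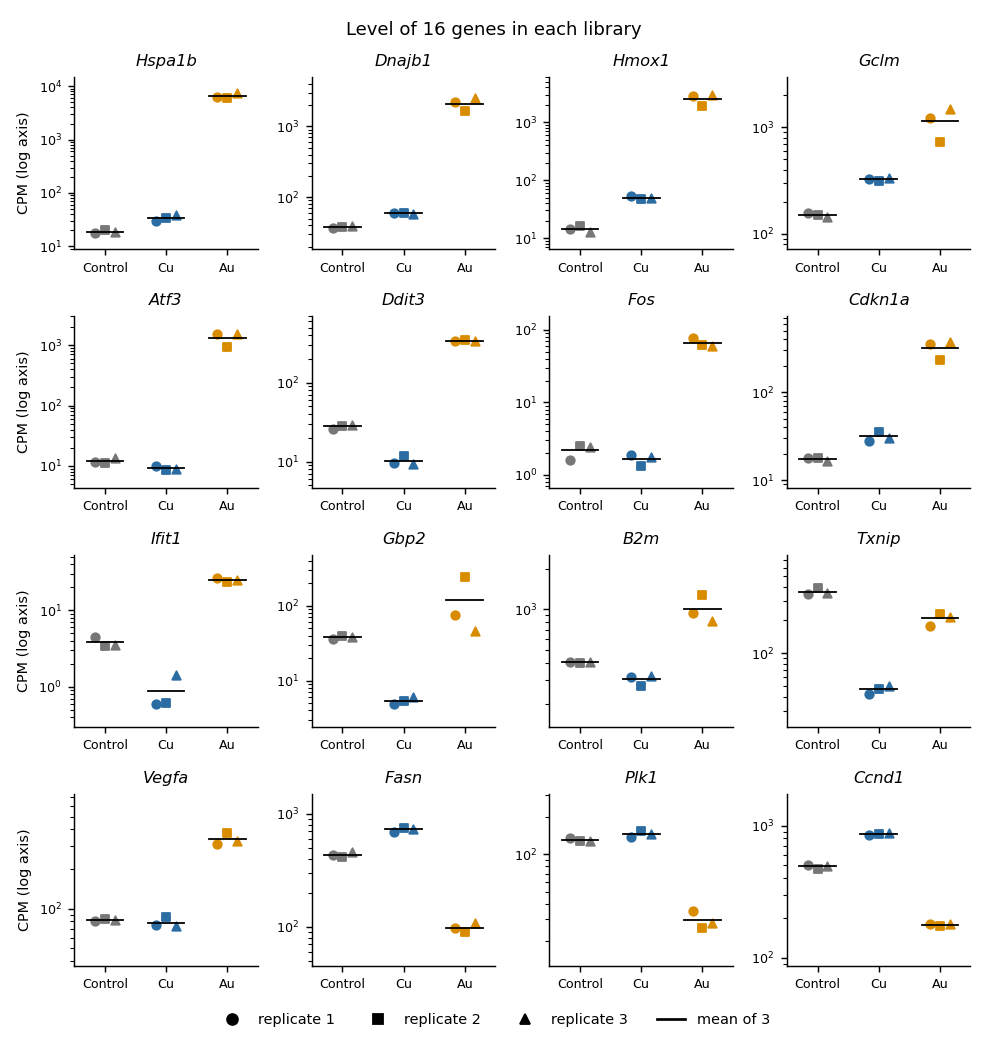
Level of 16 genes in each of the 9 libraries (vertical axes, CPM on log axes; horizontal axes, Control, Cu_TCPP and Au_TCPP), with marker shapes for replicates 1 to 3 and a line at the mean of 3. The Au_TCPP libraries lie above the Cu_TCPP libraries in 13 panels and below them in Fasn, Plk1 and Ccnd1. Control lies between the material groups in panels that include Atf3, Ddit3, Ifit1, Gbp2, B2m, Fasn and Ccnd1. It lies above both in that of Txnip.

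Iron and heme genes were mixed. Of 29 genes in the list, 14 were higher (48.3%) and 4 lower (13.8%), beside 31.2% and 31.9% of all genes tested. With library totals alone the counts were 11 and 11. The ferritin chains, which store iron, differed by 1.89 ± 0.12 for Fth1 and 2.30 ± 0.11 for Ftl1. Ftl1 was at 386, 448 and 437 CPM in Cu_TCPP and 1979, 2201 and 2076 CPM in Au_TCPP. Sat1, which acetylates polyamines, was at 136, 138 and 142 CPM in Control, 67.4, 62.1 and 65.9 CPM in Cu_TCPP and 331, 268 and 397 CPM in Au_TCPP (2.35 ± 0.14). Ptgs2, a cyclooxygenase used as a marker of ferroptosis, was at 177, 154 and 161 CPM and 1497, 811 and 1671 CPM (3.01).

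Of 25 metallothionein, copper and zinc genes, 10 were higher (40%) and 6 lower (24%), beside 31.2% and 31.9% of all genes tested. The list median was 0.19. This median was 0.05 without Au_TCPP replicate 2, 0.07 without Cu_TCPP replicate 2, 0.12 without Au_TCPP replicate 3, 0.14 without Cu_TCPP replicate 1 and -0.13 with library totals alone. The counts were 5 and 10 with library totals. Mt1, a metallothionein that binds copper and zinc, was at 88.5, 94.1 and 97.4 CPM in Control, 328, 285 and 357 CPM in Cu_TCPP and 1045, 1713 and 945 CPM in Au_TCPP, a difference of 1.93 ± 0.21 (SE, adjusted p = 1.3e-05). Control was lowest, and replicate 2 was the highest Au_TCPP library. Mt2 went from 5.91, 3.58 and 5.56 CPM to 26.5, 58.3 and 23.3 CPM (2.85 ± 0.41). The zinc importers Slc39a10 and Slc39a14 fell with gold, by 2.31 and 1.29 on the log2 scale. Slc39a10 was at 104, 97.7 and 106 CPM in Cu_TCPP and 23, 14.5 and 24.7 CPM in Au_TCPP.

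Lipoylated enzymes are the mitochondrial proteins to which copper binds in copper-induced death. Of 16 genes of protein lipoylation and copper-induced death, 3 were higher (18.8%) and 7 lower (43.8%). Of all genes tested, 31.2% were higher and 31.9% lower. With library totals alone the list counts were 1 and 12. The copper importer Slc31a1 is in this list and was called higher (0.52). Ogdh, of the oxoglutarate dehydrogenase complex, was at 153, 156 and 164 CPM in Cu_TCPP and 32.1, 31.1 and 39.4 CPM in Au_TCPP (-2.20 ± 0.11). Fdx1, the ferredoxin of that pathway, was at 27.4, 30.4 and 29.4 CPM and 37.9, 33.8 and 32.4 CPM and was not called, nor was Lias, the lipoyl synthase (-0.14).

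In the list of Txnip and glucose sensing, which holds sensors and their targets, 9 of 12 genes were higher with gold and 1 lower (median 1.09). Txnip (chr3:96557957-96561883), which restrains glucose uptake and is induced when sugar phosphates are abundant, was at 345, 391 and 354 CPM in Control, 42.7, 47 and 50.1 CPM in Cu_TCPP and 177, 228 and 215 CPM in Au_TCPP. The copper-only libraries were lowest and Control highest, with no overlap, and the material groups differed by 2.15 ± 0.12 (SE, adjusted p = 3.7e-08). Its relative Arrdc4 was at 9.07, 8.82 and 8.26 CPM, 4.98, 4.70 and 4.47 CPM and 15.1, 27.4 and 20.4 CPM in the same order of groups, a difference of 2.15 ± 0.21, with Control between the material groups. Mlxip, which encodes MondoA, was the 1 member called lower, at 74.2, 76.2 and 71.6 CPM and 27.5, 35.7 and 31.4 CPM (-1.23 ± 0.11).

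Of 23 glycolysis genes, 17 were higher and 2 lower (median 0.50), and 9 were higher and 3 lower with library totals alone. The count of glycolysis genes lower was 1 with the length offset, 0 without Au_TCPP replicate 1 or Cu_TCPP replicate 2 and 1 without Au_TCPP replicate 3 or Cu_TCPP replicate 3. The glucose transporter Slc2a1 (GLUT1) was at 149, 152 and 169 CPM in Control, 213, 252 and 239 CPM in Cu_TCPP and 504, 535 and 479 CPM in Au_TCPP, a difference of 1.11 ± 0.11. Aldoa, an aldolase, differed by 1.37 ± 0.11, and the isomerase Gpi1 by 1.34 ± 0.13. Gapdh is uncertain, since many processed pseudogenes carry its sequence; it was at 38.2, 38.7 and 36.2 CPM in Cu_TCPP and 71.2, 112 and 419 CPM in Au_TCPP (2.41, adjusted p = 0.045), and this call was lost without Au_TCPP replicate 2, where the difference was 2.73 with an adjusted p of 0.073, and without each of the Cu_TCPP libraries. Of the 14 genes of the pentose phosphate pathway and NADPH supply, 3 were higher and 3 lower (21.4% each). Of all genes tested, 31.2% were higher and 31.9% lower. With library totals alone 9 of the 14 were lower, and with the length offset 7. H6pd, the dehydrogenase of the endoplasmic reticulum, was at 59.9, 69.1 and 64.4 CPM and 12.5, 15.2 and 12.4 CPM (-2.27 ± 0.12), while Me1 and Pgd, which make NADPH in the cytosol, were higher (1.0 and 0.77).

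HIF targets were higher with gold in 18 of 22 genes and lower in 1 (median 1.49; 2 lower with library totals alone). Vegfa, the angiogenic factor, was at 80.5, 83.9 and 82 CPM in Control, 75, 86.3 and 73.9 CPM in Cu_TCPP and 307, 372 and 326 CPM in Au_TCPP, a difference of 2.09 ± 0.12 (SE, adjusted p = 3.6e-08). Control and Cu_TCPP overlapped and all Au_TCPP libraries were above them. Ndrg1, a stress-responsive protein, went from 911, 935 and 1003 CPM to 4358, 5622 and 4133 CPM (2.31 ± 0.13), and the collagen prolyl hydroxylase P4ha2 from 22.2, 22.9 and 20.4 CPM to 106, 145 and 100.4 CPM (2.42 ± 0.14). Ddit4, which restrains mTOR, differed by 1.10 ± 0.12. Car12, a carbonic anhydrase, was the 1 member called lower (-0.61). Replicate 2 was the highest Au_TCPP library in 17 of 19 called members, against 40.5% of all genes tested.

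Of 31 genes of the integrated stress response, 20 were higher and 4 lower (median 0.80; 9 lower with library totals alone). Atf3 (chr1:191170296-191218039), a transcription factor of this and other stress responses, was at 11.4, 11.4 and 13.7 CPM in Control, 9.85, 8.69 and 9.04 CPM in Cu_TCPP and 1510.4, 927 and 1516 CPM in Au_TCPP, a difference of 7.16 ± 0.22 (SE, adjusted p = 9.2e-10). Ddit3, which encodes the pro-apoptotic factor CHOP, was at 25.8, 28.6 and 29.3 CPM, 9.52, 11.8 and 9.26 CPM and 336, 351 and 338 CPM in the same order, a difference of 5.07 ± 0.13. It overlaps Mars on the other strand by 68 nt, and Mars fell (-0.97). Ppp1r15a (GADD34), which restarts translation, went from 7.82, 13 and 10.1 CPM to 403, 364 and 447 CPM (5.29 ± 0.18).

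Other targets of ATF4 differed less or were not called. Chac1, which degrades GSH, differed by 1.40 ± 0.15 and the pseudokinase Trib3 by 1.40 ± 0.14. Atf4 itself was at 428, 441 and 431 CPM in Cu_TCPP and 741, 532 and 649.6 CPM in Au_TCPP (0.56). Asns, the asparagine synthetase, was at 479, 429.8 and 490.2 CPM and 458, 371 and 523 CPM, which overlap, and was not called (-0.05 ± 0.13, adjusted p = 0.75). The serine synthesis genes Psat1 (-0.12) and Phgdh (-0.01) were not called, and Shmt2 (-0.87) and the amino acid transporter Slc7a5 (-0.91) were called lower. Among 22 aminoacyl-tRNA synthetase genes, 5 were higher (22.7%) and 8 lower (36.4%), beside 31.2% and 31.9% of all genes tested. The count higher was 10 without Au_TCPP replicate 2 and 8 with the length offset. With library totals alone 3 were higher and 13 lower. Vars differed by -1.36 ± 0.11 and Sars by 0.71 ± 0.11.

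In the unfolded protein response of the endoplasmic reticulum, 19 of 30 genes were higher and 5 lower (median 0.55), with 8 lower with library totals alone. The count lower was 3 with the length offset, 3 when replicate 1 or 3 of Au_TCPP or replicate 1 of Cu_TCPP was left out, and 2 when replicate 3 of Cu_TCPP was. Hspa5 (BiP), its main chaperone, was at 886, 895 and 909 CPM in Control, 1634, 1563 and 1630.2 CPM in Cu_TCPP and 8894, 5793 and 9524 CPM in Au_TCPP, a difference of 2.33 ± 0.17 (SE, adjusted p = 2.9e-07). Dnajb9, its partner, went from 10.6, 9.0 and 8.39 CPM to 150.1, 148 and 167 CPM (4.05 ± 0.12), without overlap. Sel1l, of the degradation machinery of the compartment, was lower (-1.02 ± 0.11), and Hyou1 (-0.12) and Pdia4 (-0.15), a chaperone and a disulfide isomerase there, were not called.

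AP-1 and immediate early genes, which are switched on within minutes by stress kinases and growth factors, were higher in 28 of 32 and lower in 0 (median 2.02; 1 lower with library totals alone and with the length offset). Fos was at 1.63, 2.51 and 2.46 CPM in Control, 1.86, 1.33 and 1.74 CPM in Cu_TCPP and 77.9, 61.7 and 60.9 CPM in Au_TCPP, a difference of 5.34 ± 0.17 (SE, adjusted p = 7.9e-10). Its AP-1 partner Jun went from 64.1, 67.2 and 62.9 CPM to 784, 788 and 760.2 CPM (3.59 ± 0.11). Dusp1, a phosphatase that turns stress kinases off, went from 7.82, 9.41 and 9.26 CPM to 425, 330.3 and 453 CPM (5.51 ± 0.16). All Au_TCPP libraries were above all Cu_TCPP libraries in these genes. The naming rule requires such a lack of overlap of Fos and Dusp1. Myc was at 297, 283 and 294 CPM and 258, 282 and 265 CPM and was not called.

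Of 26 p53 targets, 17 were higher and 3 lower (median 0.52), with 8 lower with library totals alone and 5 without Au_TCPP replicate 2. Cdkn1a (p21), which stops the cell cycle, was at 17.8, 17.7 and 16.3 CPM in Control, 28.2, 35.5 and 30.4 CPM in Cu_TCPP and 351, 229 and 366 CPM in Au_TCPP, a difference of 3.33 ± 0.18 (SE, adjusted p = 4.9e-08). The growth-arrest genes Btg2 and Gadd45a differed by 4.67 ± 0.16 and 3.77 ± 0.16; Btg2 went from 2.19, 2.71 and 3.0 CPM to 73, 57.7 and 70.7 CPM. Ccng1 (-0.11) and Phlda3 (-0.08), which also are p53 targets, were not called, and Zmat3 was lower (-1.76).

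Of 31 apoptosis regulators, 13 were higher (41.9%) and 10 lower (32.3%), beside 31.2% and 31.9% of all genes tested. With library totals alone, 7 were higher. The death receptor Fas was at 13.6, 13.5 and 12.2 CPM in Control, 3.39, 2.76 and 3.05 CPM in Cu_TCPP and 17, 21.4 and 14.5 CPM in Au_TCPP (2.52 ± 0.19). Bcl2l11 (BIM), which promotes death, was higher (0.96 ± 0.10), and Bcl2l1 (BCL-XL) and Xiap, which protect, were lower (-0.98 ± 0.10 and -0.92 ± 0.11). Mcl1, also protective, was higher (0.86).

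Interferon response genes had the highest median of the 34 lists that do not mark cell types, 3.31, with 38 of 40 higher and 0 lower (37 and 1 with library totals alone). In Control they stood between the material groups for 36 of these 38 genes: relative to Cu_TCPP, the median member was at 1.61, 1.64 and 1.60 on the log2 scale in the Control libraries and at 2.75, 3.44 and 2.21 in the Au_TCPP libraries. Ifit1, which binds foreign RNA, was at 4.43, 3.39 and 3.56 CPM in Control, 0.602, 0.613 and 1.42 CPM in Cu_TCPP and 26.3, 23.1 and 24.9 CPM in Au_TCPP, a difference of 4.81 ± 0.25 (SE, adjusted p = 2.4e-08). Isg15, a ubiquitin-like modifier, was at 15.7, 12.9 and 13.3 CPM, 3.94, 5.42 and 6.37 CPM and 80.9, 111 and 66.8 CPM in the same order (4.04 ± 0.22). Irf9, of the factor that carries the interferon signal to these genes, was at 35.8, 37.5 and 34.1 CPM, 9.85, 10.0 and 11.4 CPM and 66, 85.6 and 49.9 CPM (2.69 ± 0.18). In all 3 genes the groups did not overlap and Cu_TCPP was lowest. Oas2 and Mx1, antiviral effectors, had 13 and 5 counts in Cu_TCPP as a whole; Oas2 was at 5.70, 4.57 and 5.44 CPM in Control and 9.16, 16.9 and 6.11 CPM in Au_TCPP, and Mx1 at 0.844, 0.410 and 0.837 CPM and 5.48, 14.5 and 3.71 CPM.

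The Au_TCPP libraries differed among themselves in the interferon genes. Replicate 2 was the highest Au_TCPP library in 35 of 38 called members. Gbp2, a guanylate-binding protein induced by interferon gamma, was at 36.4, 39.4 and 38.9 CPM in Control, 4.81, 5.27 and 6.10 CPM in Cu_TCPP and 76.2, 241 and 46.8 CPM in Au_TCPP, a difference of 4.49 ± 0.81 (SE, adjusted p = 0.0066). Igtp, an immunity-related GTPase whose locus overlaps Irgm2, was at 16.7, 59.6 and 10.6 CPM in Au_TCPP (3.84 ± 0.84, adjusted p = 0.012). The Igtp call was lost without Cu_TCPP replicate 3 (3.79, adjusted p = 0.068). Without Au_TCPP replicate 2 the difference was 3.53 for Gbp2 and 2.77 for Igtp, and 38 of 40 interferon genes were higher and 2 lower, with a median of 2.95. Gbp2, Gbp2b, Gbp7 and Igtp were among the 6 genes with the largest spread over the Au_TCPP libraries, and the Gbp7 call was lost without Cu_TCPP replicate 1 (adjusted p = 0.073) or 3 (adjusted p = 0.13).

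MHC class I genes, which present peptides to T cells, were higher in 15 of 19 and lower in 0 (median 1.28; 1 lower with library totals alone and 2 without Au_TCPP replicate 2), and replicate 2 was the highest Au_TCPP library in 15 of 15 called members. B2m, the light chain, was at 408, 400.3 and 409.7 CPM in Control, 316, 269 and 321 CPM in Cu_TCPP and 944, 1265 and 815 CPM in Au_TCPP, a difference of 1.74 ± 0.16 (SE, adjusted p = 1.4e-06). The proteasome activator Psme1 went from 38.3, 44.4 and 41.8 CPM to 129, 152 and 99.2 CPM (1.61 ± 0.14), and H2-T23 from 2.35, 3.07 and 2.40 CPM to 27, 43.3 and 18.6 CPM (3.50 ± 0.30); class I genes resemble each other, so the split of reads among them is uncertain. Nlrc5, the transactivator of these genes, did not go with them: it was at 35.7, 31.6 and 34.2 CPM in Control, 17.3, 17.4 and 17 CPM in Cu_TCPP and 12.8, 15.8 and 12.8 CPM in Au_TCPP and was not called (-0.32 ± 0.14, adjusted p = 0.061). Without replicate 2 it was called lower, at -0.40 with an adjusted p of 0.010. Beside these lists, the macrophage marker list summed to 26.8 to 30.3 CPM in Cu_TCPP and 73.6 to 92.7 CPM in Au_TCPP, mostly Cd68, Cd14 and Mrc1, with the defining markers Ptprc and Adgre1 at 0 in Au_TCPP and Csf1r at 0.139, 0.0686 and 0.145 CPM.

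Of 32 chemokines and NF-kB targets, 17 were higher (53.1%) and 8 lower (25%), beside 31.2% and 31.9% of all genes tested. Their median was 0.41. Csf2 (GM-CSF) went from 1.20, 0.767 and 0.654 CPM to 27.1, 16.8 and 26.8 CPM (4.74 ± 0.27), Ccl5, which draws T cells, from 4.27, 5.42 and 6.65 CPM to 37.3, 39.8 and 33.4 CPM (2.76 ± 0.16), and Il1a, an alarm cytokine, from 38.9, 36.6 and 38 CPM to 171, 126 and 165 CPM (2.02 ± 0.12). Nfkbia (-0.70), an NF-kB target that feeds back on it, Vcam1 (-1.29) and Csf3 (-1.04) were called lower. Il11, a cytokine outside the list, went from 0.985, 1.33 and 0.872 CPM to 54.9, 18 and 69.7 CPM, a difference of 5.47 ± 0.66 (SE, adjusted p = 5.6e-04).

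**Figure D4:**
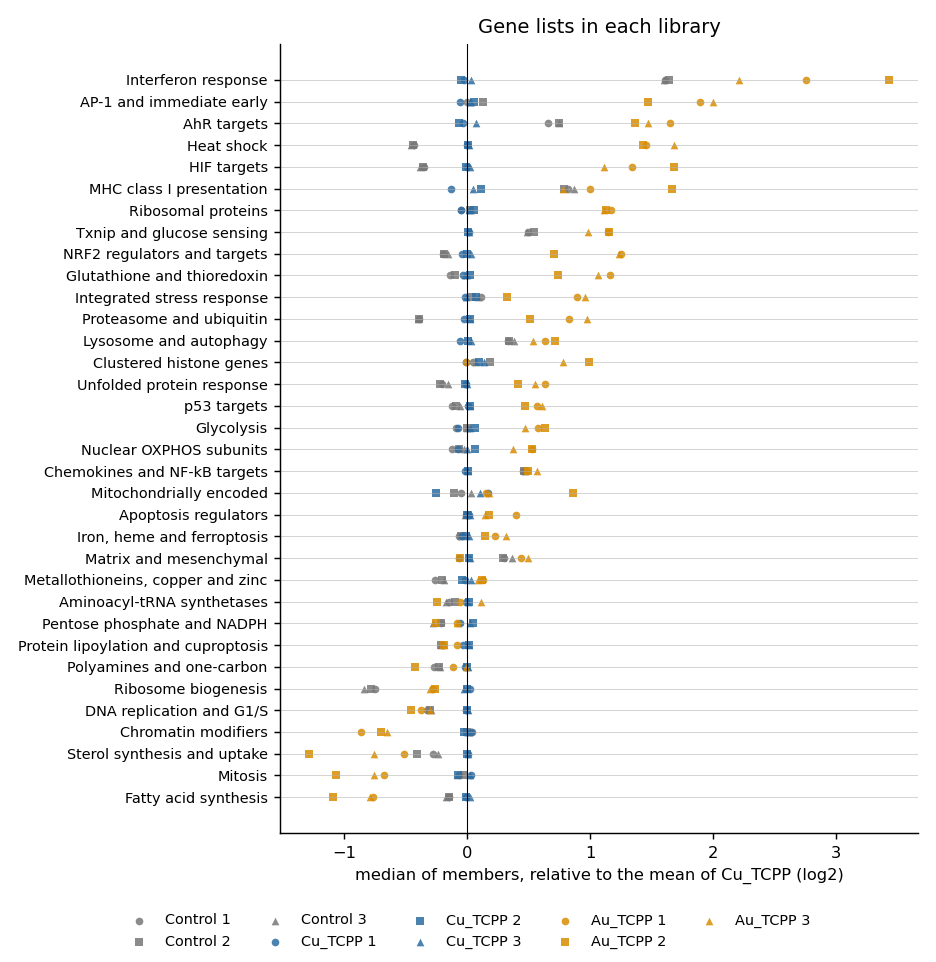
Median over the members of each gene list in each library (horizontal axis, log2 relative to the mean of the Cu_TCPP libraries; vertical axis, lists), coloured by group with marker shapes for replicates 1 to 3. The interferon list lies at 2.75, 3.44 and 2.21 in Au_TCPP, with replicate 2 highest, and at 1.61, 1.64 and 1.60 in Control; the sterol list lies at -0.51, -1.29 and -0.76 in Au_TCPP, with replicate 2 lowest.

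Lipid synthesis genes were lower with gold. Of 22 fatty acid synthesis genes, 16 were lower and 2 higher (median -0.89; 0 higher with library totals alone and 1 without Cu_TCPP replicate 3). Fasn (chr11:120805846-120824547), the fatty acid synthase, was at 432, 418 and 457 CPM in Control, 692, 751 and 738 CPM in Cu_TCPP and 96.4, 90.4 and 108 CPM in Au_TCPP, a difference of -2.89 ± 0.11 (SE, adjusted p = 3.2e-09). The groups did not overlap, and Cu_TCPP was highest. Acaca, the carboxylase that makes its substrate, went from 114, 113 and 116 CPM to 23, 24.1 and 22 CPM (-2.32 ± 0.10), and the elongase Elovl6 from 113, 100.3 and 108 CPM to 33.7, 21.9 and 35.7 CPM (-1.81 ± 0.16). Of 24 sterol genes, 16 were lower and 1 higher (median -0.78). Lss, the lanosterol synthase, went from 122, 119.6 and 122 CPM to 35, 22.6 and 34.5 CPM (-1.98 ± 0.15). Srebf2, the transcription factor of these genes, and its escort Scap were lower too (-1.39 ± 0.14 and -1.40 ± 0.12). The 1 sterol gene called higher was Insig1, which holds SREBP proteins back, at 115, 128 and 119 CPM and 274, 151 and 273 CPM (0.95). Replicate 2 was the lowest Au_TCPP library in 15 of 17 called sterol genes, and 4 were called higher without it.

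Genes of cell division were lower. All 36 mitosis genes had a difference below 0, 33 were called lower and 0 higher (median -0.87). Plk1, a kinase of mitotic entry, was at 136, 129 and 128 CPM in Control, 137, 153 and 147 CPM in Cu_TCPP and 35.1, 25.5 and 27.9 CPM in Au_TCPP, a difference of -2.30 ± 0.12 (SE, adjusted p = 2.9e-08). Ccnb1 (cyclin B1) went from 208, 199 and 205 CPM to 63.5, 62.9 and 57.9 CPM (-1.73 ± 0.10). Espl1, the separase that parts sister chromatids, went from 161, 162 and 159.6 CPM to 21.7, 19.1 and 21 CPM (-2.97 ± 0.10), and the kinesin Kif14 from 86.2, 79 and 76.9 CPM to 10.3, 9.12 and 10.9 CPM (-2.99 ± 0.12). Control was close to Cu_TCPP in these genes. Mki67, a marker of cycling cells, was at 934, 788 and 883 CPM and 244, 172 and 221 CPM (-2.03). Each library is RNA of many cells, so fewer cells with a transcript and less of it per cell cannot be told apart.

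Of 40 genes of DNA replication and the G1/S step, 21 were lower and 8 higher (median -0.40); 14 were higher without Au_TCPP replicate 2 and 3 with library totals alone, and 5 without Au_TCPP replicate 1 or Cu_TCPP replicate 3. Ccnd1 (cyclin D1), which starts the cycle, was at 505, 471 and 493 CPM in Control, 843, 863 and 871 CPM in Cu_TCPP and 179, 174 and 179 CPM in Au_TCPP, a difference of -2.28 ± 0.10 (SE, adjusted p = 6.3e-09). Its level was highest in Cu_TCPP and lowest in Au_TCPP, with no overlap. The DNA polymerase subunit Pole went from 113, 110.2 and 119 CPM to 33.4, 31.9 and 33 CPM (-1.80 ± 0.09), and the helicase subunit Mcm7, which overlaps Cops6 and Ap4m1, from 199, 215 and 209 CPM to 80.6, 87.7 and 68.5 CPM (-1.39 ± 0.11). Pcna, the replication clamp, was called higher (0.90).

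Of 47 chromatin modifiers, 35 were lower and 8 higher (median -0.76). With the length offset 23 were lower, 12 higher and the median was -0.24; with library totals alone 1 was higher. The methyltransferase Kmt2b went from 73.4, 82.2 and 73.7 CPM to 15.7, 25.3 and 17.4 CPM (-1.97 ± 0.16). Kdm3a, a demethylase that is also a HIF target, had the highest difference of the list (1.38).

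Ribosomal protein genes were higher in 50 of 51 and lower in 0 (median 1.12; 0.90 and 49 higher with the length offset). Rpl23 was at 592, 641 and 589 CPM in Cu_TCPP and 1684, 1863 and 1668 CPM in Au_TCPP (1.52 ± 0.10), and Rps20 at 799.7, 799 and 866 CPM and 2163, 2124 and 2191 CPM (1.39 ± 0.10). In Control, Rps20 was at 895, 945 and 946 CPM. These genes have many processed pseudogenes that can share their reads, and of the processed pseudogenes tested, 350 (47.1%) were higher and 55 (7.4%) lower. Ribosome biogenesis, the nucleolar assembly of ribosomes, went the other way: of 37 genes, 19 were lower and 4 higher (median -0.24), with 29 lower with library totals alone and 8 higher without Au_TCPP replicate 2. Tcof1, which promotes ribosomal RNA synthesis, was at 72.8, 67 and 70.5 CPM in Control, 119, 129.6 and 120.2 CPM in Cu_TCPP and 36, 28 and 42.3 CPM in Au_TCPP (-1.79 ± 0.13), and Rrp12, a processing factor, differed by -1.71 ± 0.12.

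Nuclear genes of oxidative phosphorylation were higher in 52 of 75 and lower in 0 (median 0.45). This count depended on scaling and length: 30 were higher and 10 lower with the length offset, and 23 and 10 with library totals alone. Without Au_TCPP replicate 2 or 3, 1 was lower. Ndufb11, a complex I subunit, went from 45.2, 56.1 and 49.3 CPM to 115, 128 and 107 CPM (1.22 ± 0.11). Of 12 genes encoded in mitochondrial DNA, 3 were higher (25%) and 2 lower (16.7%), beside 31.2% and 31.9% of all genes tested. These counts turned with the setting. With the length offset, and with library totals alone, 1 was higher and 4 lower. The count higher was 5 without Au_TCPP replicate 1, 6 without Au_TCPP replicate 3 and 1 without Cu_TCPP replicate 3, and the count lower was 4 without Au_TCPP replicate 2 and 1 without Cu_TCPP replicate 1. The complex I subunit mt-Nd5 was at 938, 801 and 871 CPM and 392, 763 and 513 CPM (adjusted p = 0.016; 0.053 without Cu_TCPP replicate 1). Mitochondrial genes took 1.11%, 2.37% and 1.23% of the Au_TCPP counts, with replicate 2 highest, and 1.47%, 1.09% and 1.36% of the Cu_TCPP counts.

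**Figure D5:**
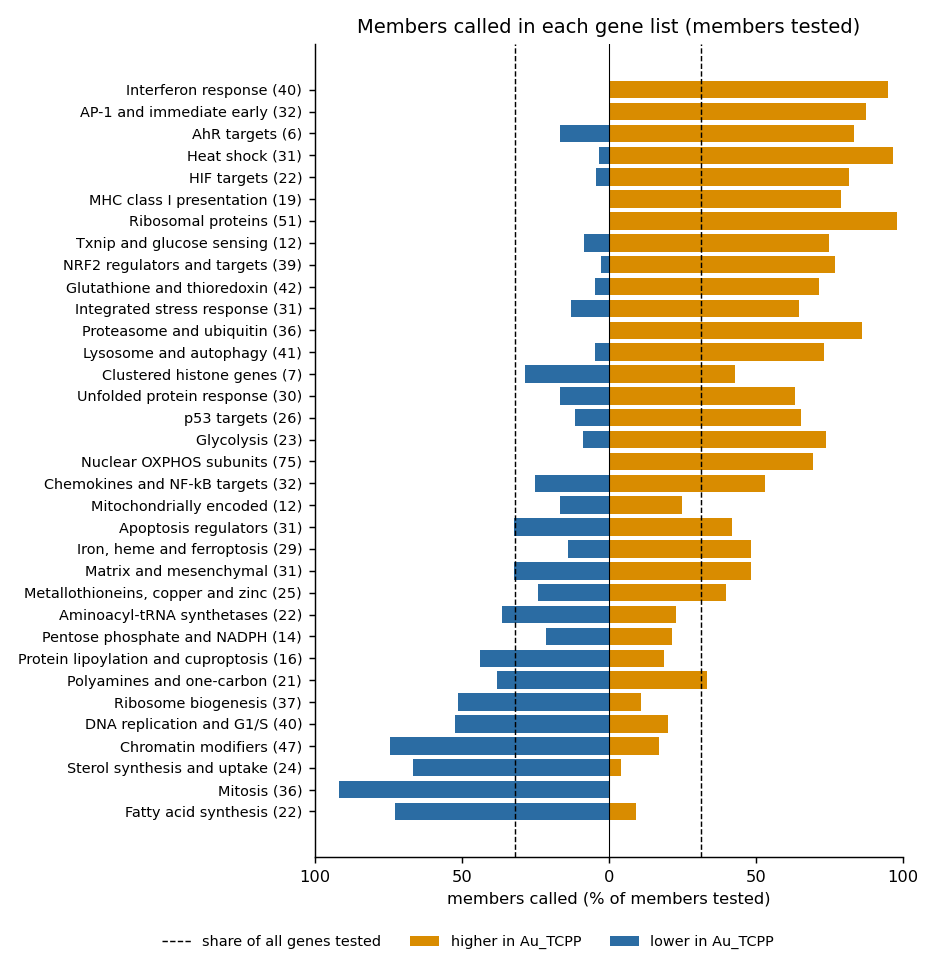
Share of members called higher (right) or lower (left) with gold in each of 34 gene lists (horizontal axis, % of the members tested; number tested in brackets), ordered by the median difference. Dashed lines mark the shares over all genes tested, 31.2% higher and 31.9% lower; the interferon, heat shock and ribosomal protein lists pass 90% on the right and the mitosis list on the left.

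Of 31 matrix and mesenchymal genes, 15 were higher (48.4%) and 10 lower (32.3%), beside 31.2% and 31.9% of all genes tested. The count lower was 5 with the length offset and 6 without Cu_TCPP replicate 3. Ctgf, a matricellular target of YAP, was at 38.8, 37 and 37.8 CPM in Control, 97.7, 98.9 and 101 CPM in Cu_TCPP and 9.50, 14.9 and 8.72 CPM in Au_TCPP, a difference of -3.16 ± 0.17 (SE, adjusted p = 3.7e-08). The gelatinase Mmp9 was at 29.1, 27.2 and 32.3 CPM, 7.82, 8.95 and 8.12 CPM and 49, 45.6 and 44.5 CPM in the same order (2.48 ± 0.12). Snai1, which represses epithelial genes, was higher (1.58 ± 0.12), while of 18 epithelial markers 11 were higher and 4 lower, among them Cldn4, a tight junction protein, at 5.69, 7.51 and 5.50 CPM and 56.9, 76.2 and 43.2 CPM (3.23 ± 0.21). Krt16, a keratin of stressed epithelium, had 1 count in Cu_TCPP as a whole and was at 7.28, 1.99 and 11.8 CPM in Au_TCPP.

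Of 6 targets of the aryl hydrocarbon receptor tested, 5 were higher and 1 lower. Cyp1b1, a cytochrome P450 that this receptor induces, was at 50.4, 50.1 and 52.7 CPM in Control, 1.42, 1.84 and 1.20 CPM in Cu_TCPP and 4.93, 4.25 and 3.63 CPM in Au_TCPP, a difference of 1.51 ± 0.27 (SE, adjusted p = 3.4e-04). Both material groups were far below Control, without overlap among the 3 groups. Tiparp, which represses the receptor, went from 167, 128 and 161 CPM to 542, 417 and 552 CPM (1.73 ± 0.14).

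Of 21 polyamine and one-carbon genes, 7 were higher (33.3%) and 8 lower (38.1%), near the 31.2% and 31.9% of all genes tested. With library totals alone, 13 were lower and 3 higher. Of 7 histone genes 3 were higher (42.9%) and 2 lower (28.6%), beside the same shares of all genes tested. Without Cu_TCPP replicate 2 or 3, 5 histone genes were higher. Summed markers of other cell types were low beside the epithelial sum of 4825 to 5608 CPM in Au_TCPP. Lymphocyte markers summed to 0.767 to 1.64 CPM in Cu_TCPP and 2.29 to 4.73 CPM in Au_TCPP, fibroblast markers to 15.8 to 19.3 CPM and 25.1 to 29.9 CPM, and endothelial markers to 50.7 to 56.4 CPM and 45.8 to 51.5 CPM. Their part in the differences was not tested. Gdf15 and Cyp1a1, which the naming rule holds, had too few counts to be tested.

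The 12 genes that fell most at 5 CPM or more in the higher group included Ctgf, Espl1, Kif14 and Fasn, described above. The others were Dock10 at 8.04, 5.52 and 8.17 CPM in Cu_TCPP and 0.624, 0.548 and 0.291 CPM in Au_TCPP (-3.86 ± 0.32, adjusted p = 7.1e-07), and Dagla (-3.03), which makes an endocannabinoid, Sorbs2 (-2.92), Fem1a (-2.88) and Jade2 (-2.84). Dnah17 (-3.21), Card14 (-2.85) and Zbtb45 (-2.82) overlap genes on the other strand, and no source used here says whether reads were counted by strand, so their values are uncertain.

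Set against Control, the genes called between the materials fell into patterns. Of the 4153 genes higher with gold, Control was below both material groups in 1821 (43.8%), between them in 2002 (48.2%) and above both in 330. Among the 4243 genes lower with gold, Control was above both groups in 1606 (37.9%), between them in 2350 (55.4%) and below both in 287. Control was lowest in genes such as Hmox1, Gclm and Mt1, where both materials were above Control and gold more so. In 36 of the 38 interferon genes and 15 of the 15 MHC class I genes that were higher, copper alone was below Control and gold above it. Control entered no test here.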

How the data were processed

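Polyadenylated RNA of 9 libraries of 4T1 cells was sequenced, 3 per group, and grouped by their titles. Per the submitters' processing notes, tools were HTSeq, Cufflinks 2.1.1 and Bowtie 0.12.9, with the build mm10; their roles are not given there. Raw read counts per gene stand in the deposited table, as its headers say. FPKM values beside them were made by the authors. Group means of scaled counts, a signal deposited by the authors for each comparison, were not used. The authors' log2 fold changes and p-values for this pair, from a test not given in the sources used here, served only for a count of shared calls.

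Counts of the 6 libraries were fitted with edgeR 4.0.16 in R 4.3.3 (TMM factors, filterByExpr, robust quasi-likelihood fit with a mean per group, Benjamini-Hochberg adjustment over the 13297 genes tested, threshold 0.05). The common dispersion came to 0.0158. CPM of all 9 libraries are on the scale of this fit. With 15477324 to 17494776 counts per library, 1 count is a small part of a CPM, and 3 counts were taken as the floor below which no fold is given. Coordinates are those of the deposited table; 12790 of the 13288 tested genes found in GENCODE M21 have the same ones there.

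The comparison and the 39 gene lists, 5 of them cell type markers, were chosen with earlier results of these data known. Genes were named by a rule: the 12 highest and 12 lowest called genes at 5 CPM or more without overlap between groups; the 4 called members of each list with the smallest p; 23 fixed genes; and the 6 genes of largest spread within each group at 20 CPM or more. This gave 177 genes. Other list members printed were chosen after their values were seen. A few genes that the rule names are not reported here. The alternatives tried were DESeq2 1.42.0, RLE factors, scaling by library totals alone, dropping the filter, asking for 1 CPM in 3 libraries, limma 3.58.1 on log2 FPKM with pseudocounts of 1 and 0.1, all 9 libraries in the fit, a replicate block, a length offset (spline with 5 degrees of freedom), a log2 difference of at least 1, and leaving out each library. The fit was tested on simulated data. Tables and figures were made in Python 3.11.15 with pandas 2.3.3, numpy 2.4.6 and matplotlib 3.10.9.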

Additional observations from a re-analysis of the deposited data

How the results depend on the processing

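The count of 8396 genes called was within 1.5 times under every alternative that kept the threshold: it ranged from 7470 (without Cu_TCPP replicate 3) to 9149 (without Au_TCPP replicate 2) when 1 library was left out, and from 8112 (a filter of 1 CPM) to 9122 (no filter) over the other settings. DESeq2 called 8209, and limma on log2 FPKM 8219 or 8214 with pseudocounts of 1 and 0.1. Asking also for a log2 difference of at least 1 left 3522. The split into 4153 higher and 4243 lower became 2584 higher and 6074 lower with library totals alone, which apply no factor for composition. With the replicate block 8285 genes were called. Same-numbered libraries of the 2 groups did not deviate together over all genes (correlations of -0.07, 0.05 and 0.01). Such correlations cannot show whether single cultures or handling steps were shared, so whether the numbers pair the libraries is not known. Of 2800 values of named genes under the alternatives, 2756 kept their call or lack of one, 24 lost the call and 20 gained one. Among genes called in the fit above, 0 values changed sign. Sign changes of genes not called there were not counted. With 3 libraries a group, differences up to and also above the median standard error of 0.14 could be missed. Mafg and Mbd2, for example, differed by -0.24 ± 0.11 and 0.18 ± 0.09 (SE) and were not called.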

Other observations

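The deposited table assigns transcription factors to families, and 840 of them were tested, 248 higher and 292 lower with gold. The families below were chosen after their values were seen, among those with at least 8 genes tested. The bZIP family, which in the deposited table holds AP-1, ATF, CREB, MAF and NRF proteins, had 24 of 37 genes higher and 3 lower, with a median difference of 1.01. Of 8 interferon regulatory factors 6 were higher and 0 lower. The E2F family, whose members activate or repress S phase genes, had 1 of 10 higher and 7 lower, and the methyl-CpG-binding family 0 of 9 higher and 7 lower. Atf3 and Fos, named above, belong to the first of these families, and Irf7 and Irf9 to the second.

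Host genes of small nucleolar RNAs, whose spliced transcripts are mostly degraded when translation runs, were also chosen after their values were seen. Of 13 tested, 9 were higher with gold and 1 was lower, beside 31.2% and 31.9% of all genes tested. A link of these differences to translation was not tested. Snhg1 was at 55, 57.4 and 53.2 CPM in Cu_TCPP and 292, 272 and 307 CPM in Au_TCPP, a difference of 2.40 ± 0.10 (SE, adjusted p = 5.1e-09). Snhg12 went from 16.6, 18.8 and 17.6 CPM to 98.9, 99.7 and 118 CPM (2.58 ± 0.11), Gas5 from 81.7, 77.4 and 75.8 CPM to 177, 203 and 164 CPM (1.21 ± 0.11) and Zfas1 from 54.5, 63.5 and 50.2 CPM to 146, 191 and 159.9 CPM (1.56 ± 0.13). Snhg4 was the 1 host gene called lower, at 37.5, 33.7 and 32.6 CPM and 10.1, 22.5 and 11.8 CPM (-1.22 ± 0.25, adjusted p = 0.0016).

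Replicate 2 of Au_TCPP took opposite places in different gene lists. It was the highest Au_TCPP library in 35 of 38 called interferon genes, 15 of 15 MHC class I genes and 17 of 19 HIF targets. It was the lowest in 27 of 31 called heat shock genes, 28 of 31 proteasome genes and 26 of 31 NRF2 genes. Over all genes tested it was highest in 40.5% and lowest in 38.7%. The labels give nothing that sets this library apart.

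A few genes varied widely within a group. Sumo2 was at 89.7, 82.4 and 14.6 CPM in Control, 78.4, 73.3 and 19.2 CPM in Cu_TCPP and 114, 99.8 and 26.2 CPM in Au_TCPP, low in replicate 3 of every group. Rps27rt was at 263, 67.6 and 234 CPM in Cu_TCPP and 142, 415 and 164 CPM in Au_TCPP. Rps27a was at 258, 300.4 and 696 CPM and 1771, 1662 and 1739 CPM. Near-identical copies elsewhere in the genome make the counts of these genes uncertain.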
